A study of Mus musculus with 5 samples.

Results

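The genes described here are those of the MYC transcription factor network and of ribosome biogenesis, the process that makes ribosomal RNA (rRNA) and assembles it with proteins into the small and the large subunit. They were taken from the expression table by gene symbol: 50 symbols were listed, and 49 of them are among the 23337 genes of the table. The remaining one, Mycl, stands there under its older symbol Mycl1 and is given separately. The listed genes comprise 8 of the MYC network, 2 enzymes of polyamine synthesis, and 39 ribosome biogenesis genes: 5 for rRNA transcription, 3 nucleolar scaffold proteins, 3 of the box C/D core, 4 of the H/ACA core, 10 of the processome and small subunit and 14 of large subunit assembly.

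The data are mRNA levels in mouse embryonic fibroblasts of strain 129Sv that were made immortal with the SV40 large T antigen (SV40T), a viral protein that inactivates the p53 and RB tumour suppressors, and were grown under normal conditions. The 2 KO-labelled libraries come from SIRT3 -/- cells, which by their label lack the mitochondrial protein deacetylase SIRT3, and the 3 WT-labelled libraries from wild type cells. Both groups carry SV40T. The labels do not say how many lines each genotype stands for or whether replicates are separate cultures, so the p-values measure only the spread between these libraries. Reads counted on genes, as recovered from the deposited values, were between 33473103 and 41758681 per library. Sirt3 itself had 200.4 and 217 normalized counts in the KO-labelled libraries, against 169.7, 149 and 118 in the WT-labelled ones, so its transcript was higher under the KO label. A count per gene does not show whether an exon is missing and so does not check that label, and every direction below is that of the libraries as labelled.

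MYC binds DNA as a dimer with MAX at the sequence CACGTG, the E-box, and activates genes of growth, prominent among them those of ribosome and polyamine synthesis. The MXD and MNT proteins compete for MAX, and repress from the same sites. A ribosome begins in the nucleolus, where RNA polymerase I copies the rRNA precursor. Small nucleolar ribonucleoproteins of the box C/D and H/ACA classes modify it, the processome folds and cleaves it on the small subunit side, and a separate set of factors builds the large subunit.

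Of the 49 genes, all of which passed the filter on low values, 29 rose and 8 fell in the KO-labelled libraries, and 12 were not called; a call here is a limma adjusted p under 0.05 on log2 of the normalized count + 1. These are 59.2% higher and 16.3% lower, against 32.6% and 32.6% of all 13062 genes tested. In either direction 75.5% were called, against 65.3% of all genes tested and 73.3% of the genes at or over the median level (35.8% higher and 37.5% lower), so the number of calls is near that of other well expressed genes. The balance of directions was not put to a test of its own. The median log2 fold change (KO over WT) was 0.20 over the 49 genes and -0.0023 over all genes tested. In bulk samples a change in the share of cells of a kind and one in RNA per cell cannot be told apart. Most changes were small: 6 of the 49 were called and at least 1.5-fold higher and 2 at least 1.5-fold lower, against 12.3% and 12% of all genes tested.

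**Figure D1:**
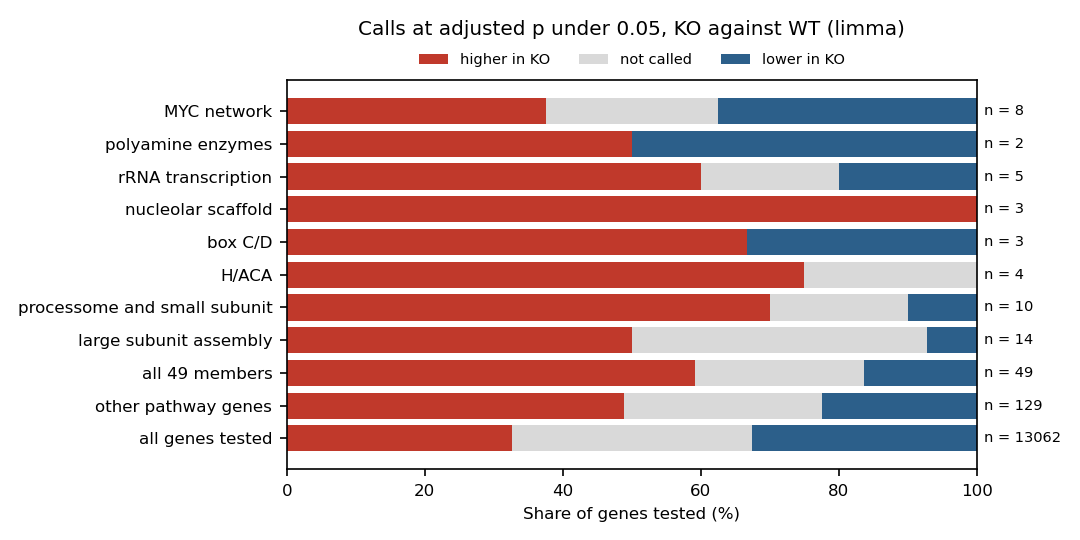
Share of genes called higher (red), not called (grey) and called lower (blue) in the KO-labelled libraries by role, at an adjusted p under 0.05 (limma); n is the number of genes tested. The bar of all 49 genes holds 29 higher and 8 lower, the nucleolar scaffold bar is all higher, and the MYC network bar is split 3 to 3.

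The 2 KO-labelled libraries lay above all 3 labelled WT for 31 genes and below all 3 for 9, and the groups overlapped for the other 9. Over all genes tested, the groups of 75.4% did not overlap, with 37.8% above and 37.6% below. Among the 39 ribosome biogenesis genes 25 were called higher, 4 lower and 10 not, with a median log2 fold change of 0.21. Their summed RPKM, a read count scaled by library size and transcript length and so a level per length, was 2787 and 2645 in the KO-labelled libraries, against 2237, 2268 and 2280 in the WT-labelled ones. The means stand at a ratio of 1.2. With 2 against 3 libraries an exact two-sided permutation test of one value cannot give a p below 0.2, and it gave 0.2 here. Of the 49 genes 13 overlap another gene of the table other than a small nucleolar RNA, and 6 (Odc1, Npm1, Nop56, Fbl, Pes1 and Wdr12) have near-identical copies elsewhere, so that their counts are less certain.

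**Figure D2:**
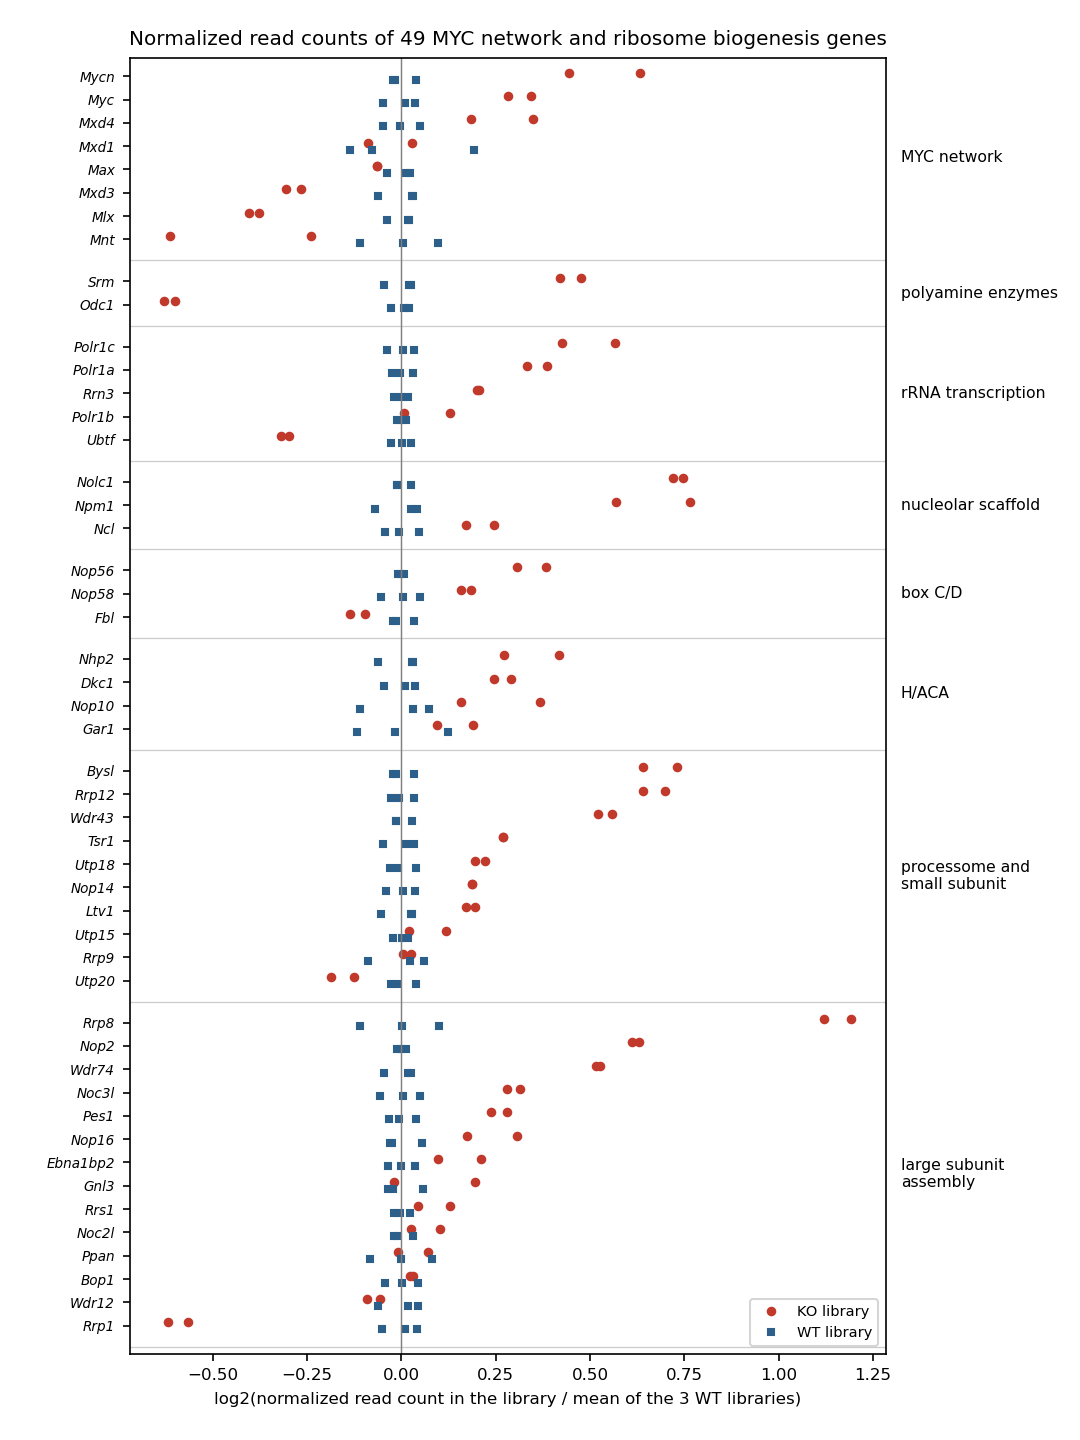
Normalized count of each of the 49 genes in each library, as log2 of its ratio to the mean of the 3 WT-labelled libraries, for KO-labelled libraries (red circles) and WT (blue squares), grouped by role and ordered by the difference. Both red circles lie to the right of the squares for 31 genes and to the left for 9, with Rrp8 farthest right and Odc1 and Rrp1 farthest left by their means.

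The E-box was looked for in the 250 bases before each start that RefSeq's promoter table gives for a gene, in assembly GRCm38.p6, which is the one called mm10 in the submitters' processing notes. CACGTG reads the same on both strands. Of the 49 genes, 42 have a promoter entry there, and 6 of these (14.3%) hold the motif, against 9.99% of the tested genes with an entry and 6.02% of all 32851 promoter windows of this length. The 7 without an entry are Myc, Fbl, Rrp12, Srm, Bop1, Npm1 and Rrs1. All 6 genes with the motif were called: Nop2, Rrn3, Utp18 and Mxd4 higher and Mlx and Mnt lower, so that sequences with an E-box stood on both sides of the comparison. The motif was found in 4 of 25 higher, 2 of 7 lower and 0 of 10 uncalled genes with an entry, and in 10.1%, 10.3% and 9.62% of the genes called higher, called lower and not called over the whole table. The variant CACGCG, searched on both strands, stood in 6 of the 42 (14.3%), in 16.8% of the tested genes and in 7.62% of all windows; none of the printed windows holds it. For Mlx and Mnt the only start in the table lies 583 and 118 bases inside the gene span given below, so their windows precede an inner transcript start. A match of letters is a description of the window and does not show binding.

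The 6 windows are printed 5′ to 3′ on the strand of their gene, with CACGTG in capitals, because they are the listed genes in which this motif stands beside a call. Those of Nop2 (chr6:125131633-125131882, plus strand, motif 60 bases before the start), Mlx (chr11:101087040-101087289, plus strand, 40 bases before), Rrn3 (chr16:13780449-13780698, plus strand, 215 and 48 bases before), Mnt (chr11:74830674-74830923, plus strand, 123 bases before), Utp18 (chr11:93885767-93886016, minus strand, 20 bases before) and Mxd4 (chr5:34187711-34187960, minus strand, 219 bases before) read as follows.
Nop2: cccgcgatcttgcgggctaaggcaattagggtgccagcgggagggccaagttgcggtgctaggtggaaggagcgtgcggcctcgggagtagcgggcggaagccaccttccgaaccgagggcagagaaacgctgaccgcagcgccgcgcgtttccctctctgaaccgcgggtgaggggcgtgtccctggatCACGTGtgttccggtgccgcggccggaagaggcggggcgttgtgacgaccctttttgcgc
Mlx: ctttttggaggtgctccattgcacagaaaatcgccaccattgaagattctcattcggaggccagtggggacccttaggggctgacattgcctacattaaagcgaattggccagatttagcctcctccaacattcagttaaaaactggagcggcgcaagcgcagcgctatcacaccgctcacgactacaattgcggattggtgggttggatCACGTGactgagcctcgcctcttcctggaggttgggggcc
Rrn3: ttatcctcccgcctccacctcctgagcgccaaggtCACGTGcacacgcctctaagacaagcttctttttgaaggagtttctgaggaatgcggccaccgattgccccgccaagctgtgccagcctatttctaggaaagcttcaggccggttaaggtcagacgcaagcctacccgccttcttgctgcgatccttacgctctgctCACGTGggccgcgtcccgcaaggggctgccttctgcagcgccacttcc
Mnt: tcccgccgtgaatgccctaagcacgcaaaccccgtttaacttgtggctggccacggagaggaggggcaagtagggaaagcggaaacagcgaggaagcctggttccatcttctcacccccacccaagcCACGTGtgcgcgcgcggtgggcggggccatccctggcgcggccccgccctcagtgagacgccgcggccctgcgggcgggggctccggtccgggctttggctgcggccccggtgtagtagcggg
Utp18: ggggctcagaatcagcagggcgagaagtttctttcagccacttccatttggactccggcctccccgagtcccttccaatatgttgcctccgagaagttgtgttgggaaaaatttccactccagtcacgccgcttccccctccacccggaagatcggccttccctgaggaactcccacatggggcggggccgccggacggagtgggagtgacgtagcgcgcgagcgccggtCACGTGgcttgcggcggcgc
Mxd4: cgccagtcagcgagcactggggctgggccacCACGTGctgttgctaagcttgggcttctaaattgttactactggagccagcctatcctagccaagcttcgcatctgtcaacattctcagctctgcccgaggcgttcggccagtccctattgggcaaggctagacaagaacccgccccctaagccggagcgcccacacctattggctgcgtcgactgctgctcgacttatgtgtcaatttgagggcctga
Rrn3 is the one with a pair of motifs, and Utp18 has its motif nearest to the start.

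In the MYC network 3 of 8 genes were higher, 3 lower and 2 not called in the KO-labelled libraries, with a median log2 fold change of -0.04. Both MYC paralogs in the list were higher and the antagonists were divided. Myc (chr15:61985341-61990361; all gene positions are RefSeq's on GRCm38.p6), the member of the family found in most dividing cells, was at 3748 and 3909.9 normalized counts in the KO-labelled libraries, against 2979, 3101 and 3161 in the WT-labelled ones. This is a log2 fold change of 0.31 ± 0.0438 (SE; limma, adjusted p = 2.02e-06), and the groups did not overlap. Mycn (chr12:12936093-12941836), the paralog best known from neural tissue and neuroblastoma, had 129.9 and 148 normalized counts in the KO-labelled libraries, against 98.1, 94.0 and 94.4 in the WT-labelled ones, a log2 fold change of 0.53 ± 0.160 (SE; limma, adjusted p = 0.00619). Its level per length was the lowest of the 49 genes, 1.44 ± 0.119 RPKM (SD, n = 2) in the KO-labelled libraries and 0.996 ± 0.0247 RPKM (SD, n = 3) in the WT-labelled ones, against 43.0 and 34.8 RPKM for Myc. The Mycn call ended without KO replicate 2 (0.44) and with DESeq2 on recovered reads of 4 libraries (0.53, adjusted p = 0.0734). In the authors' deposited table, which covers all 5 libraries, it was kept (adjusted p = 0.0311).

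Mycl, another paralog, is found under the symbol Mycl1 (chr4:122995588-123002490). It had 681 and 668 normalized counts in the KO-labelled libraries, against 142, 155 and 170.2 in the WT-labelled ones, a 4.32-fold difference with a log2 fold change of 2.11 ± 0.110 (SE; limma, adjusted p = 3.38e-13). The KO-labelled libraries lay far above all of those labelled WT. Per length it stood at 5.20 ± 0.114 RPKM (SD, n = 2) in the KO-labelled libraries and 1.21 ± 0.108 RPKM (SD, n = 3) in the WT-labelled ones. It was thus above Mycn and far below Myc in the KO-labelled libraries and close to Mycn in the WT-labelled ones.

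Max (chr12:76937269-76962323), the shared partner, had 1786 and 1788 normalized counts in the KO-labelled libraries, against 1887, 1900.3 and 1822 in the WT-labelled ones, a log2 fold change of -0.06 (limma, adjusted p = 0.255). Its values lay a little below all of the WT ones without passing the test. Mnt (chr11:74830806-74845725), a MAX-bound repressor present in growing and resting cells, was at 1149.7 and 1489 in the KO-labelled libraries, against 1762, 1631 and 1882 in the WT-labelled ones (normalized counts), a log2 fold change of -0.42 ± 0.0789 (SE; limma, adjusted p = 7.57e-05). The 2 KO-labelled libraries differed from each other by more than those labelled WT did, and both lay below them. Without KO replicate 1 the log2 fold change was -0.24 (adjusted p = 0.0244), and without KO replicate 2 it was -0.61. Mxd3 (chr13:55325170-55329900), an MXD protein expressed in S phase, had 720.2 and 739.5 normalized counts in the KO-labelled libraries, against 907, 853 and 909 in the WT-labelled ones, a log2 fold change of -0.28 ± 0.0667 (SE; limma, adjusted p = 0.000802). Mxd4 (chr5:34176580-34187710), another MXD repressor, went the other way with 687 and 771 in the KO-labelled libraries, against 627, 585 and 604 in the WT-labelled ones (normalized counts), a log2 fold change of 0.27 ± 0.0765 (SE; limma, adjusted p = 0.00447). All of its KO values lay above the WT ones, but the call ended without KO replicate 2 (0.18) and with DESeq2 on 4 libraries (0.24, adjusted p = 0.0669). The authors' deposited table kept it (adjusted p = 0.0159).

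Mxd1 (chr6:86647044-86669234), the MXD protein best known from differentiating cells, had 312 and 338 normalized counts in the KO-labelled libraries, against 314, 302 and 378 in the WT-labelled ones, a log2 fold change of -0.02 (limma, adjusted p = 0.87) with overlapping groups. Mlx (chr11:101086707-101092207), which pairs with the nutrient-sensing MONDO proteins and with some MXD proteins, was at 1759.8 and 1728 in the KO-labelled libraries, against 2226, 2317 and 2313 in the WT-labelled ones (normalized counts), a log2 fold change of -0.39 ± 0.0476 (SE; limma, adjusted p = 3.09e-07). It was lower in both KO-labelled libraries than in any labelled WT. Mlx shares 385 bases with Psmc3ip on the opposite strand, which was also lower (log2 fold change -0.53), and, the strand setting of the counting not being given, reads of that stretch cannot be told apart. Of the related genes outside the list, Mga, a MAX partner of a repressive complex, was higher (log2 fold change 0.33, limma adjusted p = 6.39e-07) and Mxi1, also known as Mxd2, lower (log2 fold change -0.45, limma adjusted p = 1.52e-06). Mlxip, which encodes the MONDO protein MondoA, was not called (log2 fold change -0.07, limma adjusted p = 0.203). The summed RPKM of the 8 network genes was 131.5 and 135.9 in the KO-labelled libraries and 136.3, 135.8 and 139.2 in the WT-labelled ones, with overlapping groups.

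**Figure D3:**
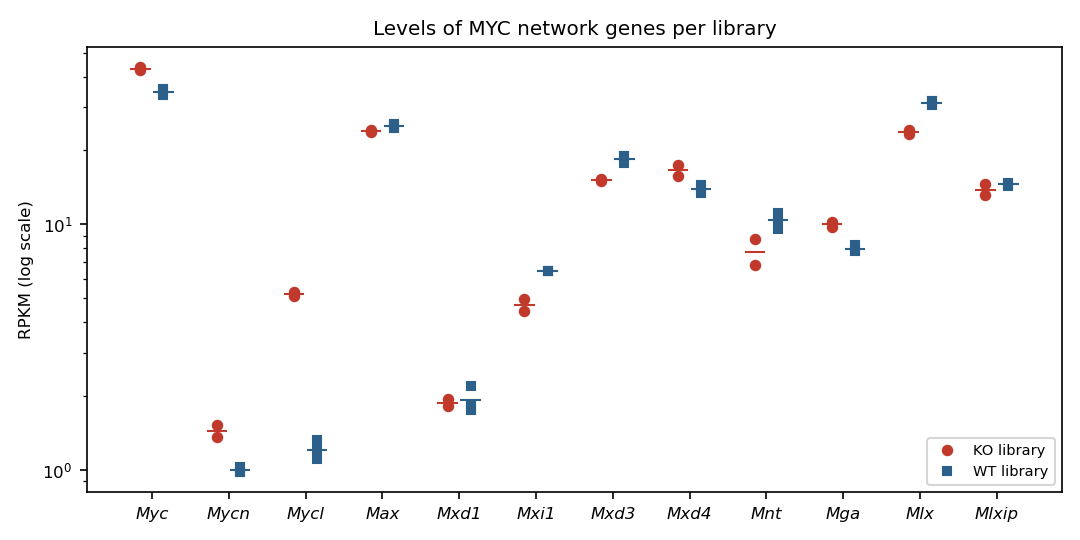
RPKM on a log axis of 12 MYC network genes in each library labelled KO (red circles) and WT (blue squares), with lines at the group means. Mycl shows the widest gap between the groups, Myc has the highest level, and Mycn and Mxd1 lie at the low end.

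The enzymes of polyamine synthesis went in opposite directions. Odc1 (chr12:17544808-17551502), ornithine decarboxylase, which makes putrescine and is a classic MYC target, had 18613 and 18228 normalized counts in the KO-labelled libraries, against 27676, 28319.7 and 28578 in the WT-labelled ones, a log2 fold change of -0.61 ± 0.0363 (SE; limma, adjusted p = 2.69e-12). Srm (chr4:148591513-148594619), spermidine synthase, which uses putrescine, was at 12834 and 13327 in the KO-labelled libraries, against 9754, 9733 and 9279.8 in the WT-labelled ones (normalized counts), a log2 fold change of 0.45 ± 0.0381 (SE; limma, adjusted p = 1.17e-09). Neither overlapped between groups, and the RPKM ratio of Srm over Odc1 was 1.32 and 1.40 in the KO-labelled libraries, against 0.676, 0.659 and 0.623 in the WT-labelled ones. It is 1 of 12 such ratios computed within complexes or pathways, for none of which the exact two-sided permutation test can go below 0.2. Odc1 was the most abundant of the 49 genes per length in the WT-labelled libraries (299.6 RPKM) and ranked behind Npm1 and Srm in those labelled KO (195 RPKM). Odc1 shares a near-identical stretch (at least 95% identity over 300 bases or more) with transcripts of 7 other genes. In the rest of the pathway 1 of 6 tested genes was higher and 3 were lower. Smox, spermine oxidase, fell by 1.89 on the log2 scale (limma, adjusted p = 1.16e-14). Sat1, which acetylates polyamines for export, was at a log2 fold change of -0.24 (limma, adjusted p = 0.0018) and Oaz2, an antizyme that sends ornithine decarboxylase to degradation, at -0.12 (limma, adjusted p = 0.0272). Paox, the oxidase of acetylated polyamines, was higher at a log2 fold change of 0.98 (limma, adjusted p = 0.000377). The Oaz2 call ended without KO replicate 2, WT replicate 1 or WT replicate 3 (adjusted p up to 0.15), with DESeq2 and in the authors' deposited table, and that of Sat1 without KO replicate 2 (adjusted p = 0.107). Amd1 is listed at 0 in every library, and Oaz1, with at most 8.90 normalized counts in any library, was not tested. Whether their transcripts were absent or were not counted cannot be told, since the counter and the annotation are not given.

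Of the 5 rRNA transcription genes 3 were higher, 1 lower and 1 not called in the KO-labelled libraries (median log2 fold change 0.20). Polr1a (chr6:71909053-71979435), the largest subunit of RNA polymerase I, had 8612 and 8929.6 normalized counts in the KO-labelled libraries, against 6982, 6718 and 6819.9 in the WT-labelled ones, a log2 fold change of 0.36 ± 0.0380 (SE; limma, adjusted p = 3.7e-08). Polr1c (chr17:46243920-46248045), a subunit shared with RNA polymerase III, was at 1914 and 1736 in the KO-labelled libraries, against 1260.4, 1323 and 1296 in the WT-labelled ones (normalized counts), a log2 fold change of 0.50 ± 0.0562 (SE; limma, adjusted p = 1.05e-07). Rrn3 (chr16:13780699-13814841), the factor that joins the polymerase to the promoter and whose own promoter holds the pair of E-boxes, had 6467 and 6446 in the KO-labelled libraries, against 5535, 5679 and 5603 in the WT-labelled ones (normalized counts), a log2 fold change of 0.20 ± 0.0377 (SE; limma, adjusted p = 7.09e-05). None of these overlapped between the groups. Ubtf (chr11:102304560-102323649), the upstream binding factor that keeps rRNA genes open, was lower: 8018 and 8135 normalized counts in the KO-labelled libraries, against 9813, 10016 and 10169 in the WT-labelled ones, a log2 fold change of -0.31 ± 0.0367 (SE; limma, adjusted p = 2.18e-07). Polr1b, the second largest subunit, overlapped between groups and was not called (log2 fold change 0.07, limma adjusted p = 0.179). The RPKM ratio of Polr1b over Polr1a was 0.703 and 0.739 in the KO-labelled libraries, against 0.871, 0.890 and 0.885 in the WT-labelled ones. Polr1a lies among genes with a median log2 fold change of 0.40, and Polr1b among genes with one of -0.09. With these medians taken off, Polr1a was at -0.04 (limma, adjusted p = 0.38). Polr1b was then called higher at 0.15 (limma, adjusted p = 0.0042).

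All 7 other rRNA transcription genes tested were called, 4 higher and 3 lower, where 65.3% of all genes tested were called. Taf1c, of the selectivity factor SL1 that binds the rRNA gene promoter, was higher at a log2 fold change of 1.03 (limma, adjusted p = 1.43e-11). Also higher were the polymerase subunits Polr1e at a log2 fold change of 0.32 (limma, adjusted p = 0.000298) and Polr1d at 0.22 (limma, adjusted p = 0.00142). Taf1d, also of SL1, was higher at 0.19 (limma, adjusted p = 0.00215). The SL1 subunits Taf1a and Taf1b were lower at log2 fold changes of -0.37 (limma, adjusted p = 0.00042) and -0.22 (limma, adjusted p = 0.0288). The termination factor Ttf1 was lower at -0.27 (limma, adjusted p = 0.00376). The call of Taf1b ended without KO replicate 1 or any 1 of the WT libraries (adjusted p up to 0.263), with edgeR and DESeq2 and in the authors' deposited table, and that of Ttf1 without KO replicate 2 (adjusted p = 0.152). Taf1c lies among genes with a median log2 fold change of 0.94, and with that median taken off its value was 0.09 (adjusted p = 0.31). The rRNA precursor Rn45s itself had 256636 and 261907 normalized counts in the KO-labelled libraries, against 399106, 238013 and 214583 in the WT-labelled ones. The groups overlapped, and since RNA was selected on poly-T beads these values are what the selection left and no measure of rRNA synthesis.

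The 3 nucleolar scaffold genes were all higher in the KO-labelled libraries and had the largest median log2 fold change of the roles, 0.67. Nolc1 (chr19:46075847-46085543), also called Nopp140, which escorts small nucleolar ribonucleoproteins, had 11278 and 11487 normalized counts in the KO-labelled libraries, against 6789, 6967 and 6790.3 in the WT-labelled ones, a log2 fold change of 0.73 ± 0.0368 (SE; limma, adjusted p = 1.64e-13). Npm1 (chr11:33152498-33164142), nucleophosmin, the main protein of the outer nucleolar layer, was at 26777 and 23382 in the KO-labelled libraries, against 15014, 16208 and 16043 in the WT-labelled ones (normalized counts), a log2 fold change of 0.67 ± 0.0479 (SE; limma, adjusted p = 7.01e-11). Ncl (chr1:86344719-86359455), nucleolin, was the most counted gene of the list with 48624 and 46156 in the KO-labelled libraries, against 39792, 42365 and 40864 in the WT-labelled ones (normalized counts), a log2 fold change of 0.21 ± 0.0403 (SE; limma, adjusted p = 0.000113). No gene of the 3 overlapped between groups. Npm1 led all 49 genes per length in the KO-labelled libraries, at 394 ± 41.3 RPKM (SD, n = 2), against 248 ± 9.98 RPKM (SD, n = 3) in the WT-labelled ones. It shares a near-identical stretch with transcripts of 4 other genes. Of 5 further nucleolar genes, 3 were higher and 1 lower. The helicase Ddx21 (log2 fold change 0.28, limma adjusted p = 6.18e-07), Mybbp1a (log2 fold change 0.25, limma adjusted p = 3.07e-06) and Tcof1, treacle (log2 fold change 0.28, limma adjusted p = 4.67e-06), were higher. Nop53 was lower (log2 fold change -0.17, limma adjusted p = 0.00373).

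The box C/D core, which guides 2′-O-methylation of rRNA, was divided. Nop56 (chr2:130274367-130279313), a scaffold subunit, had 13289.9 and 12586 normalized counts in the KO-labelled libraries, against 10186, 10131 and 10240.0 in the WT-labelled ones, a log2 fold change of 0.34 ± 0.0372 (SE; limma, adjusted p = 5.01e-08). Nop58 (chr1:59684961-59711510), its partner, was at 10959.7 and 10767 in the KO-labelled libraries, against 9290.3, 9979 and 9673 in the WT-labelled ones (normalized counts), a log2 fold change of 0.17 ± 0.0387 (SE; limma, adjusted p = 0.000559). Both were higher in each library labelled KO than in any labelled WT. Fbl (chr7:28168893-28179269), fibrillarin, the methyltransferase of the complex, had 2806 and 2880.2 normalized counts in the KO-labelled libraries, against 3156, 3037 and 3051 in the WT-labelled ones, a log2 fold change of -0.12 ± 0.0434 (SE; limma, adjusted p = 0.0237). Its groups did not overlap either, but the call ended without KO replicate 1 (adjusted p = 0.089), WT replicate 1 (adjusted p = 0.101) or WT replicate 3 (adjusted p = 0.0522). It ended also with DESeq2 (adjusted p = 0.0826) or in the authors' deposited table, where the adjusted p is 0.0503. Fbl shares a near-identical stretch with a transcript of Tulp4, which was lower too (log2 fold change -0.61), and the part of shared reads was not tested. The RPKM ratio of Fbl over Nop56 was 0.345 and 0.374 in the KO-labelled libraries, against 0.507, 0.490 and 0.487 in the WT-labelled ones. That of Nop58 over Nop56 was 0.791 and 0.820 in the KO-labelled libraries, against 0.875, 0.945 and 0.906 in the WT-labelled ones, so both ratios were lower in the KO-labelled libraries without overlap. Of the 7 further box C/D genes, which are the core protein gene Snu13 and 6 for assembly factors, 4 were higher and 2 lower. Ruvbl1 (log2 fold change 0.37, limma adjusted p = 1.24e-07), Znhit3 (log2 fold change 0.48, limma adjusted p = 0.000105) and Znhit6 (log2 fold change 0.27, limma adjusted p = 0.00148) were among the higher. Ruvbl2 (log2 fold change -0.10, limma adjusted p = 0.0305) and Pih1d1 (log2 fold change -0.17, limma adjusted p = 0.0448) were lower. These last calls each ended in 3 of the fits that left out 1 library, as did that of Snu13 (log2 fold change 0.13, limma adjusted p = 0.0352), whose groups overlap. Pih1d1 and Snu13 also lost theirs with DESeq2 and in the authors' deposited table, and Snu13 with edgeR and RPKM values.

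The H/ACA core, which guides the change of uridine to pseudouridine, had 3 of 4 genes higher and none lower (median log2 fold change 0.27). Dkc1 (chrX:75095854-75109776), dyskerin, the pseudouridine synthase, had 10097 and 9791 normalized counts in the KO-labelled libraries, against 8002, 8476 and 8312 in the WT-labelled ones, a log2 fold change of 0.27 ± 0.0384 (SE; limma, adjusted p = 2.97e-06). Nhp2 (chr11:51619773-51623718), an RNA-binding subunit, was at 3035 and 2743 in the KO-labelled libraries, against 2314, 2176 and 2320.2 in the WT-labelled ones (normalized counts), a log2 fold change of 0.35 ± 0.0509 (SE; limma, adjusted p = 4e-06). Nop10 (chr2:112261926-112262898), the smallest subunit, had 751 and 649 in the KO-labelled libraries, against 540.0, 595 and 612 in the WT-labelled ones (normalized counts), a log2 fold change of 0.26 ± 0.0830 (SE; limma, adjusted p = 0.00844). The groups did not overlap for these 3 genes, though the Nop10 call ended without KO replicate 1 (0.16, adjusted p = 0.181) or WT replicate 1 (0.21, adjusted p = 0.0587). Gar1 overlapped and missed the threshold at a log2 fold change of 0.15 (limma, adjusted p = 0.0511); it passed without WT replicate 1 (0.21, adjusted p = 0.0133). The RPKM ratios of Gar1, Nhp2 and Nop10 over Dkc1 overlapped between the groups. Nhp2 over Dkc1 was 0.839 and 0.782 in the KO-labelled libraries, against 0.807, 0.717 and 0.779 in the WT-labelled ones. Nop10 over Dkc1 was 0.300 and 0.268 in the KO-labelled libraries, against 0.272, 0.283 and 0.297 in the WT-labelled ones. Both other H/ACA genes tested were higher, the assembly factors Naf1 (log2 fold change 0.78, limma adjusted p = 1.34e-11) and Shq1 (log2 fold change 0.21, limma adjusted p = 0.0329). The Shq1 call ended without KO replicate 1, WT replicate 1 or WT replicate 2 (adjusted p up to 0.256), with edgeR and DESeq2 and in the authors' deposited table.

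**Figure D4:**
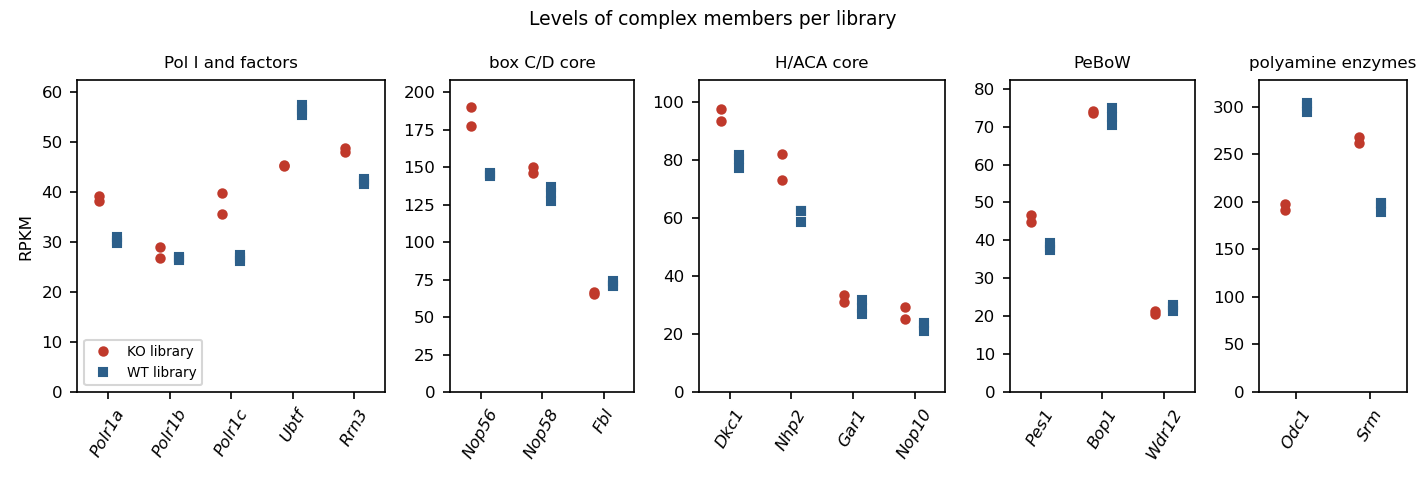
RPKM of the genes of 5 complexes or pathways in each library labelled KO (red circles) and WT (blue squares), on linear axes from 0. Nop56 lies higher and Fbl lower in the KO-labelled libraries, Ubtf lies below its WT squares while Polr1a and Polr1c lie above theirs, and Odc1 and Srm exchange order.

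For the processome and the small subunit 7 of 10 genes were higher, 1 lower and 2 not called in the KO-labelled libraries (median log2 fold change 0.20). Rrp12 (chr19:41859483-41896153), needed for maturation and export of the pre-ribosome in yeast, had 8809 and 9178 normalized counts in the KO-labelled libraries, against 5549.8, 5628 and 5792 in the WT-labelled ones, a log2 fold change of 0.67 ± 0.0388 (SE; limma, adjusted p = 1.93e-12). Bysl (chr17:47599331-47611492), bystin, which acts late in small subunit assembly, was at 4043 and 4302 in the KO-labelled libraries, against 2570.3, 2657 and 2555 in the WT-labelled ones (normalized counts), a log2 fold change of 0.68 ± 0.0444 (SE; limma, adjusted p = 1.29e-11). Bysl shares 361 bases with Ccnd3 on the opposite strand, which was higher too (log2 fold change 0.47), and the part of shared reads was not tested. Wdr43 (chr17:71616178-71659031), of the UTP-A complex that binds the precursor first, had 13792 and 13438 in the KO-labelled libraries, against 9276, 9540.1 and 9275 in the WT-labelled ones (normalized counts), a log2 fold change of 0.54 ± 0.0365 (SE; limma, adjusted p = 2.6e-11). Tsr1 (chr11:74898080-74909340), an assembly factor on the late small subunit, was at 3962 and 3961 in the KO-labelled libraries, against 3176, 3363 and 3316 in the WT-labelled ones (normalized counts), a log2 fold change of 0.27 ± 0.0424 (SE; limma, adjusted p = 9.59e-06). All 4 lay above every library labelled WT.

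Utp20 (chr10:88746607-88826814), a long scaffold protein, was the one called lower in this role: 12185 and 12706 normalized counts in the KO-labelled libraries, against 13604, 14230.1 and 13752 in the WT-labelled ones, a log2 fold change of -0.16 ± 0.0375 (SE; limma, adjusted p = 0.00106). The remaining higher genes were Utp18 of the UTP-B complex (log2 fold change 0.21, limma adjusted p = 0.000771), Nop14 (log2 fold change 0.19, limma adjusted p = 0.000462) and Ltv1, an export and assembly factor (log2 fold change 0.18, limma adjusted p = 0.00171). Not called were Utp15 of UTP-A (log2 fold change 0.07, limma adjusted p = 0.157) and Rrp9, the protein that marks the U3 small nucleolar RNA (log2 fold change 0.02, limma adjusted p = 0.776). Rrp9 shares 987 bases with Parp3 on the opposite strand, which was lower (-0.46). Of 43 other genes of this role, 22 were higher and 7 lower, a share of calls (67.4%) near the 65.3% of all genes tested. Those with the smallest adjusted p among the higher were Rcl1 (log2 fold change 1.29, limma adjusted p = 4.46e-15), Pdcd11 (log2 fold change 0.49, limma adjusted p = 1.44e-10) and Bms1 (log2 fold change 0.53, limma adjusted p = 1.97e-10). The lower ones were Kri1, Utp14a, Imp3, Pwp2, Rrp7a, Fcf1 and Krr1, with log2 fold changes of -0.51, -0.41, -0.37, -0.22, -0.22, -0.28 and -0.21.

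In large subunit assembly 7 of 14 genes were higher, 1 lower and 6 not called in the KO-labelled libraries, a share of calls (57.1%) below the 65.3% of all genes tested, with a median log2 fold change of 0.12. It held both the largest rise and one of the largest falls among the 49. Rrp8 (chr7:105731730-105737385), a methyltransferase of the large rRNA, also called nucleomethylin, had 3329 and 3165 normalized counts in the KO-labelled libraries, against 1349.7, 1562 and 1459.8 in the WT-labelled ones, a 2.23-fold difference and a log2 fold change of 1.16 ± 0.0565 (SE; limma, adjusted p = 1.03e-13). It shares 794 bases with Ilk on the opposite strand, and Ilk was higher as well (log2 fold change 1.31), so that reads of the shared stretch cannot be told apart either. Nop2 (chr6:125131883-125144753), another rRNA methyltransferase and one of the E-box genes above, was at 10202 and 10327 in the KO-labelled libraries, against 6671, 6629 and 6730.2 in the WT-labelled ones (normalized counts), a log2 fold change of 0.62 ± 0.0365 (SE; limma, adjusted p = 2.45e-12). Wdr74 (chr19:8735795-8740624), the counterpart of yeast Nsa1, had 4298 and 4271 in the KO-labelled libraries, against 3022, 2894 and 3042 in the WT-labelled ones (normalized counts), a log2 fold change of 0.52 ± 0.0423 (SE; limma, adjusted p = 5.51e-10). Rrp1 (chr10:78400362-78413043), a factor of the early large subunit in yeast, was lower with 5391 and 5594 in the KO-labelled libraries, against 8321, 7979 and 8518 in the WT-labelled ones (normalized counts), a log2 fold change of -0.59 ± 0.0398 (SE; limma, adjusted p = 2.47e-11). None of these 4 overlapped between the groups.

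The PES1, BOP1 and WDR12 proteins form the PeBoW complex, which is needed for processing on the large subunit side. Of its genes Pes1 was higher (log2 fold change 0.26, limma adjusted p = 1.04e-05), and Bop1 (log2 fold change 0.03, limma adjusted p = 0.542) and Wdr12 (log2 fold change -0.07, limma adjusted p = 0.172) were not called. The RPKM ratio of Bop1 over Pes1 was 1.58 and 1.64 in the KO-labelled libraries, against 1.96, 1.84 and 1.88 in the WT-labelled ones. That of Wdr12 over Pes1 was 0.459 and 0.462 in the KO-labelled libraries, against 0.558, 0.571 and 0.612 in the WT-labelled ones, and for both the groups did not overlap. Pes1 and Wdr12 each share a near-identical stretch with transcripts of 2 other genes. Also higher were Noc3l (log2 fold change 0.30, limma adjusted p = 1.07e-05), Nop16 (log2 fold change 0.24, limma adjusted p = 0.000305) and Ebna1bp2, the counterpart of yeast Ebp2 (log2 fold change 0.15, limma adjusted p = 0.0097). The last call ended without KO replicate 1 (0.10) and with DESeq2 on 4 libraries (0.14, adjusted p = 0.101). The authors' deposited table kept it (adjusted p = 0.0229). The other 4 uncalled genes were Rrs1 (log2 fold change 0.09, limma adjusted p = 0.114), Ppan (log2 fold change 0.03, limma adjusted p = 0.572), Gnl3, nucleostemin (log2 fold change 0.09, limma adjusted p = 0.131), and Noc2l (log2 fold change 0.06, limma adjusted p = 0.154). Of 42 further large subunit factors 20 were higher and 10 lower (71.4% called, against 65.3% of all genes tested). The higher ones were led by Mak16 (log2 fold change 0.76, limma adjusted p = 3.2e-12), Rbm34 (log2 fold change 0.98, limma adjusted p = 2.03e-11) and Rbm28 (log2 fold change 0.38, limma adjusted p = 9.01e-08). With the median of their neighbours within 5 Mb taken off, Mak16 was at 0.17 (adjusted p = 0.00403), and Rbm34 at -0.02 (adjusted p = 0.832) and Rbm28 at 0.07 (adjusted p = 0.199) were no longer called. The lower ones were Ddx10, Wdr18, Nvl, Ftsj3, Ddx24, Eif6, Zfp622, Ddx56, Gnl3l and Ddx51, with log2 fold changes between -0.38 and -0.11. The calls of Gnl3l and Ddx51 ended with single libraries left out and with edgeR and DESeq2, and that of Ddx56 with DESeq2.

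The nuclear exosome, which trims rRNA ends and has no gene in the list of 49, had 6 of 14 genes higher and 2 lower. This share of calls (57.1%) lay below the 65.3% of all genes tested. Mphosph6 (log2 fold change 1.45, limma adjusted p = 1.72e-11), Exosc1 (log2 fold change 0.73, limma adjusted p = 2.71e-11) and Exosc8 (log2 fold change 0.51, limma adjusted p = 4.58e-08) were the higher ones with the smallest adjusted p. Exosc5 (log2 fold change -0.62, limma adjusted p = 2.42e-08) and the helicase Mtrex (log2 fold change -0.13, limma adjusted p = 0.0109) were lower. The Mtrex call ended without KO replicate 2 or WT replicate 2, and with edgeR and DESeq2. Over all 129 further pathway genes tested, 63 were higher, 29 lower and 37 not called, and 70 of the 92 calls were kept with each library left out in turn. In either direction 71.3% were called, against 65.3% of all genes tested and 73.3% of the genes at or over the median level. The share called higher, 48.8%, lay between the 59.2% of the listed genes and the 32.6% of all genes tested, and the median log2 fold change was 0.11.

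Expression in the KO-labelled libraries also differed by stretches of the genome, so each gene was set beside the median log2 fold change of the other tested genes within 5 Mb. For 11 of the 49 genes that median was 0.2 or more, and 10 of these were called higher and none lower. For 7 it was -0.2 or less, and of these 2 were higher and 5 lower. In the remaining 31, whose neighbours lay between, 17 were higher, 3 lower and 11 not called, with a median of 0.17. Over all genes tested 32.6% were higher and 32.6% lower. Shares of all genes by class of neighbours were not worked out, so the counts by class have no like figure beside them. The genes with high-lying neighbours include Rrp12 (neighbours' median 0.53), Nolc1 (0.51), Noc3l (0.44), Polr1a (0.40), Bysl (0.32), Rrp8 (0.31), Wdr74 (0.31), Polr1c (0.32), Nop2 (0.26) and Wdr43 (0.24). They lie on chromosomes 6, 17 and 19, whose genes had medians of 0.32, 0.30 and 0.32, with Rrp8 on chromosome 7. Those with low-lying neighbours include Ubtf (-0.38), Mlx (-0.34), Rrp1 (-0.29) and Utp20 (-0.29) on chromosomes 10 and 11. Npm1 (0.05), Srm (-0.07), Nop56 (-0.10), Myc (-0.13) and Odc1 (-0.08) had neighbours near 0 or on the other side.

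**Figure D5:**
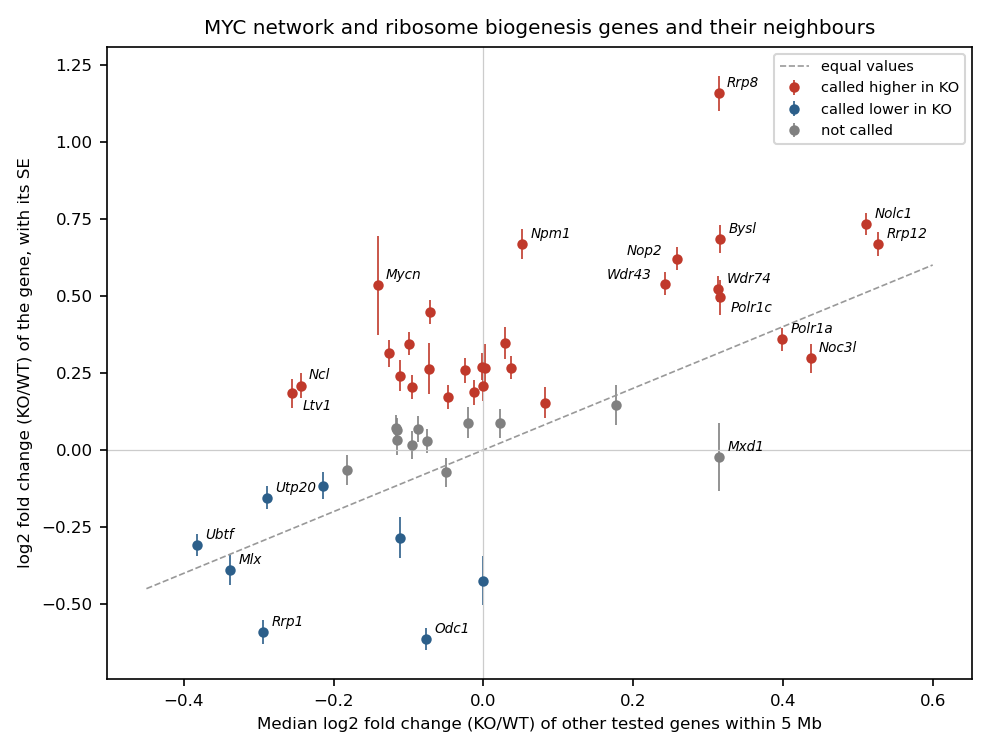
Log2 fold change (KO over WT) of each of the 49 genes with its SE, against the median log2 fold change of the other tested genes within 5 Mb, for genes called higher (red), lower (blue) and not called (grey), with a dashed line of equal values. Polr1a, Ubtf and Mlx lie on or near the line, while Npm1, Rrp8 and Mycn lie well above it and Odc1 below it.

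With the neighbours' median taken off, 34 of the 49 genes were higher and 6 lower, against 30.0% and 29.8% of all genes tested, and the median was 0.19. The neighbours' median was treated as a fixed value, so the adjusted p-values of this step leave out its own uncertainty. Of the 37 calls 30 were kept. Newly called higher were Max (0.12, limma adjusted p = 0.0418), Polr1b (0.15), Bop1 (0.10), Ppan (0.15), Noc2l (0.18), Rrp9 (0.11) and Utp15 (0.19). Mxd1 was newly called lower (-0.34, limma adjusted p = 0.0146). All 10 processome and small subunit genes were then higher, Utp20 among them (0.13, adjusted p = 0.00416), and Noc3l was called lower (-0.14, adjusted p = 0.0175). Polr1a (-0.04, adjusted p = 0.38), Ubtf (0.07, adjusted p = 0.085), Mlx (-0.05, adjusted p = 0.347), Fbl (0.10, adjusted p = 0.0538) and Ebna1bp2 (0.07, adjusted p = 0.228) were no longer called. Myc (0.44), Npm1 (0.62), Nop56 (0.44), Odc1 (-0.54) and Srm (0.52) kept their calls. Rrp12 (0.14), Nolc1 (0.22), Bysl (0.37), Wdr74 (0.21), Polr1c (0.18), Nop2 (0.36), Wdr43 (0.30), Rrp1 (-0.30) and Mxd3 (-0.17) kept theirs at values more than 1.5 times smaller. Of the 129 further pathway genes 57 were higher and 16 lower after the same step, and 62 of their 92 calls were kept. Besides Taf1c, Rbm34 and Rbm28, the named ones that lost their calls were Oaz2, Taf1b, Ttf1, Tcof1, Nop53, Ruvbl1, Ruvbl2, Pih1d1, Shq1, Pdcd11, Pwp2, Fcf1, Krr1, Wdr18, Ddx24, Zfp622 and Mtrex, and Ftsj3 was called higher (0.17, adjusted p = 0.00174). What sets the regional differences was not tested.

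The cells carried fibroblast markers, with summed normalized counts over 8 genes between 539870 and 584070 in the KO-labelled libraries and between 547470 and 562310 in the WT-labelled ones. The sums came mostly from Fn1, Vim, Col1a1 and Col1a2. Of the 8 genes 2 were higher and 4 lower, among them Pdgfra (log2 fold change -4.00) and Dcn (-2.35). Sums over markers of other cell types were low: 41.8 to 42.3 against 9.89 to 20.4 for 5 epithelial genes, 65.6 to 66.1 against 25.7 to 34.2 for 4 endothelial genes, 80.4 to 101.2 against 77.2 to 87.9 for 5 of macrophages and blood, each as KO against WT. They were 47.8 to 68.3 in KO against 7.40 to 14.1 in WT for 4 muscle genes. For 4 neuronal genes the sums were 1956 to 2055 against 1126 to 1167, nearly all from Map2, with Rbfox3 and Snap25 at 0 in all libraries. Single markers of these other types were called higher: Kdr (log2 fold change 4.12), Acta1 (2.30), Syp (2.04), Csf1r (1.99), Epcam (1.69) and Map2 (0.80). Apart from Map2, their group means were at most 56.4 normalized counts. Cdh5, Tek and Cd68 were not called, and the rest did not pass the filter. Of 11 proliferation genes 5 were higher and 3 lower (72.7% called, against 65.3% of all genes tested). Their sums were 165780 to 165920 in the KO-labelled libraries and 159600 to 162980 in the WT-labelled ones. Their part in the ribosome biogenesis values was not tested.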

How the data were processed

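Per the labels' protocols, RNA was selected on poly-T beads, and Nextera XT libraries of it were read on a NextSeq. STAR, DESeq2 and mm10 are named, without versions, in the submitters' processing notes. For the counter, the annotation and the strand setting the sources used here give nothing.

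The authors deposited one table. Its signal columns are, from the values, read counts that the authors divided by a size factor per library: 100% of the values of each library were whole multiples of a step, within 0.1 reads. Per the file headers the authors also deposited RPKM for each library and their own comparison: log2 fold change, SE, Wald score, p-value and adjusted p-value. How gene length was set for RPKM is not given. Dates stand in place of 25 symbols in the deposited file.

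Depth, taken as the reads recovered over the genes of the table, was 33473103 and 33579031 for KO and 41758681, 37396488 and 39909127 for WT. The value of WT replicate 2 (37396488) rests on a step that could not be checked, as given below. Libraries were grouped by title. The test was limma 3.58.1 (R 4.3.3), trended prior, on log2(normalized count + 1) of the 13062 genes with 10 or more in at least 2 of 5 libraries, two-sided, Benjamini-Hochberg over all of them. A fold change on this scale understates that of low genes. Count tests (edgeR 4.0.16, DESeq2 1.42.0) ran on the recovered whole reads of 4 libraries, since the step of WT replicate 2 is too near 1 to check; edgeR called 4147 genes higher and 3956 lower. The planned test depended on the unit, and the values being normalized counts decided for limma. Neighbours were the tested genes outside the list within 5 Mb, at least 5 of them. Their median was taken off the KO values as a fixed number, without its error. Near-identical stretches in transcripts of other genes were sought with blastn 2.17.0, and positions and promoters came from RefSeq (GRCm38.p6).

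The genes, their roles and the wider list were chosen with earlier results of these data known. Of 135 genes in the wider list 132 were found, 7 of them by an older symbol, and 129 tested. Values per library are given for all MYC network and polyamine genes and, in each other role, for up to 4 called genes with the smallest adjusted p and each gene called against its role's majority. From the wider list up to 3 per role by the same rule, and those against the majority, are named. A few others, such as Taf1d and Snu13, are named besides. At most 6 promoters are printed, those of called genes with CACGTG.

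In a simulation of the KO and WT libraries 12902 genes were tested, with 49 or 50 of them changed at each fold. The test recovered 55.1% of 1.2-fold, 83.7% of 1.5-fold, 89.8% of 2-fold and 100% of 4-fold changes, and 4 of 166 calls were false. Every gene was drawn with the same dispersion (0.00133), and most genes were left unchanged, unlike in the data. These rates therefore need not hold for the comparison itself. Alternatives were other rescalings, filters, pseudocounts and thresholds, RPKM values, each library left out, the replicate number as a block, the neighbours' median taken off, and a GC and length trend taken off, the last added after seeing the data.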

Additional observations from a re-analysis of the deposited data

How the results depend on the processing

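Between 29 and 30 of the 49 genes were called higher and 7 or 8 lower when each library was left out in turn. Of the 37 calls, 32 were kept in all of these fits and 27 in every fit at an adjusted p under 0.05. DESeq2 kept 33, the authors' deposited comparison 36, removal of the neighbours' median 30, and edgeR, RPKM values, TMM and the GC and length trend each kept 37. The cause of the losses was not tested. No rescaling moved the median of all genes by as much as 0.1 on the log2 scale.

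Adding a 1.5-fold minimum left 1609 genes higher and 1573 lower over the table, 6 and 2 of the 49, and 8 and 2 of the wider list. By role it left 0 in the MYC network, 1 polyamine enzyme, 0 in rRNA transcription, 2 of the nucleolar scaffold, 0 of box C/D, 0 of H/ACA, 2 of the processome and small subunit and 3 of large subunit assembly; a stricter rule gives fewer by construction. With the neighbours' median removed the wider list had 16 lower instead of 29.

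Some log2 fold changes changed sign. With the neighbours' median removed these were Max (0.12), Polr1a (-0.040), Ubtf (0.074), Fbl (0.098), Gar1 (-0.032), Utp20 (0.13) and Noc3l (-0.14). Polr1a, Ubtf and Fbl thereby lost their calls, and Utp20 and Noc3l were called in the opposite direction. Max, not called in the main fit, was called higher there (limma, adjusted p = 0.0418). Mxd1 was 0.0082 with the GC and length trend removed and ranged from -0.0859 to 0.077 with a library left out. With the neighbours' median removed Mxd1 kept its sign at -0.34 and was called lower (limma, adjusted p = 0.0146). Rrp9 was -0.024 with edgeR, -0.029 with DESeq2, -0.011 with the GC and length trend removed, and between -0.028 and 0.047 with a library left out. Ppan was -0.0042 with edgeR, -0.0093 with DESeq2 and between -0.0090 and 0.074 with a library left out, and Gnl3 lay between -0.020 and 0.20.

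The replicate numbers were also fitted as a replicate block over the numbers the groups share. Same-numbered libraries did not deviate together (correlations -0.0097 and -0.0050). With 2 KO libraries, whose deviations from their mean mirror each other, this cannot decide whether the numbers pair them. The block called 29 of the 49 genes higher and 7 lower, lost the call of Fbl (adjusted p = 0.066) and gave Mxd1 a value of 0.077.

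Depth limits the lowest genes most: the log2 fold change of Mycn, which had the lowest normalized counts of the 49, has an SE of 0.160, against 0.0363 for Odc1.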
